A study of Mus musculus with 6 samples.

Results

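The genes of the CCAAT/enhancer-binding proteins (C/EBP) were examined in RNA-seq of long-term hematopoietic stem cells, the rare marrow cells from which all blood is renewed. They were taken by gene symbol, and 4 of the 5 named (Cebpa, Cebpb, Cebpg and Cebpz) were found among the 11779 genes of the deposited count table. The remaining one, Cebpd, was not analysed here. All 4 also passed the filter on low counts that left 10869 genes for testing. The libraries came from female mice aged 8 weeks, and the sort gate was Lin-Sca1+c-Kit+CD48-CD150+. The WT group (n = 3 libraries, numbered 1, 3 and 4) had the genotype c-Mycfl/+, with 1 floxed allele of Myc and no Cre recombinase. The HET group (n = 3, with the same numbers) had the genotype c-Mycfl/+Mx1Cre, the same floxed allele with Cre driven by the interferon-responsive Mx1 promoter. That promoter is active in many cell types besides blood stem cells once interferon is induced. Deletion was induced with 3 intraperitoneal injections of poly(I:C), a double-stranded RNA analog, at 6 mg/kg, and whether WT mice were injected is not stated separately. The labels do not say whether libraries of 1 group came from separate mice, so p-values measure the spread between these libraries, which may be technical.

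C/EBP proteins are transcription factors that bind DNA as dimers through a basic region and leucine zipper (bZIP). In blood, C/EBPα directs progenitors toward the granulocyte and monocyte lineages, and C/EBPβ is required for the burst of granulocyte production in infection and is induced by cytokine and cAMP signals. C/EBPγ carries no strong activation domain of its own and pairs with other C/EBP proteins and with ATF4, the transcription factor of the amino acid response. CEBPZ shares the name but has no bZIP domain, and it is the relative of yeast Noc1, a nucleolar factor in assembly of the large ribosomal subunit.

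Total counts ranged from 4249490 to 9886223 per library, the largest being HET 1. Of 15 markers of blood stem cells, all were tested and 0 were called between the groups (edgeR adjusted p under 0.05). There were 0 at an unadjusted p under 0.05, and 0 were called with DESeq2 or limma-voom. Over all genes, 0.258% were called by edgeR and 5.22% had an unadjusted p under 0.05. With 15 genes, 0 is near these shares. Their fold changes were negative for 8 and positive for 7. Every HET library was below every WT library for 1 marker and above for 0, against 5.64% and 4.69% of all genes. Kit averaged 1157.0 CPM in WT and 1193.1 CPM in HET, where CPM are counts scaled to a common library total by the TMM method. Where 3 values are given for a group, they stand in the order of libraries 1, 3 and 4. Myc, the targeted gene, was at 447.4, 427.4 and 541.8 CPM in WT against 293.8, 386.7 and 372.0 CPM in HET. The groups did not overlap for Myc (log2 fold change -0.43 ± 0.12 SE, edgeR adjusted p 0.312).

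Among the members, Cebpb passed the test of HET against WT. It fell to 39.4% of the WT level in HET (95% interval 29.6% to 52.4%), while Cebpa, Cebpg and Cebpz did not pass the test. The gene (ENSMUSG00000056501; GRCm38 chromosome 2, 167688915 to 167690418, plus strand) has a single exon, from which several C/EBPβ protein forms are translated that RNA counts cannot separate. Its start region, a stretch through which signals such as cAMP are known to act on this gene, is shown beside those of Cebpa and Cebpg for comparison. The 250 bases before the transcription start came from RefSeq (build GRCm38.p6) and are written 5′ to 3′ on the gene's strand. They cover chr2:167688665-167688914 (plus strand) for Cebpb, chr7:35119043-35119292 (plus strand) for Cebpa and chr7:35056567-35056816 (minus strand) for Cebpg. Capitals mark TGACG (the core of the cAMP response element, CRE), TATAAA (the TATA box) and CCAAT (the CCAAT box), each on either strand. Of the 5 genes named at the outset, 3 matched the promoter table.
Cebpb: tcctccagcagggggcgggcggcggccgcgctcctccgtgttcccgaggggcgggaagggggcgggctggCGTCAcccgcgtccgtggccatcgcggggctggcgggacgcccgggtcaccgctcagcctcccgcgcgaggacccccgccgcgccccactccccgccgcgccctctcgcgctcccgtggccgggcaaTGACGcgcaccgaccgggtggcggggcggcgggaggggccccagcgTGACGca
Cebpa: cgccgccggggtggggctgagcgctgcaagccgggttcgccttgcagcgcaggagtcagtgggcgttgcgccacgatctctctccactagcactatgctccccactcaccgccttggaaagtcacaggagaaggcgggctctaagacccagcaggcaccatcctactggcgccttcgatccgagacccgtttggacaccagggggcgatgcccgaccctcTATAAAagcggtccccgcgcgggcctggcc
Cebpg: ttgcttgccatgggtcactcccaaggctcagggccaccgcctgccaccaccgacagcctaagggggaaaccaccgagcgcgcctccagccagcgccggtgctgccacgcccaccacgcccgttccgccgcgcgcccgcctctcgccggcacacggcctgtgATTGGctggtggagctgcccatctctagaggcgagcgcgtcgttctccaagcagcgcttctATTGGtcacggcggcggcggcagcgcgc
The Cebpb window held 3 matches to TGACG, and those of Cebpa and Cebpg held 0. Among 32851 mouse promoter windows of the same length, 17.8% held at least 1 match to TGACG and 0.688% held 3 or more. In the Cebpb window the matches began 180, 53 and 7 bases before the start, the farthest of them on the opposite strand, and 0 were part of the full CRE palindrome TGACGTCA. Cebpa had a TATAAA match beginning 30 bases before its start, and 12.4% of windows held TATAAA at any position on either strand. Cebpg had 2 matches to CCAAT on the opposite strand, and 10.1% of windows held 2 or more. Each of the 3 windows had 0 matches to CACGTG, the E-box letters that MYC-MAX dimers are known to bind, which 6.02% of windows held. GC content was 81.6% for Cebpb, 66.4% for Cebpa and 70.8% for Cebpg, against a median of 52.4% over all windows. The shares of windows with a motif were not matched for GC content. Other motifs were also scanned and are not marked. Among these, the Cebpb window held 5 matches to GGGCGG, the GC box, and those of Cebpa and Cebpg held 0, while 8.47% of windows held 3 or more. These are matches of letters in a short window, and binding was not measured.

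The Cebpb counts were 647, 431 and 337 in WT against 376, 195 and 149 in HET. Scaled for library size these were 116.7, 78.9 and 80.4 CPM in WT against 37.3, 42.5 and 29.0 CPM in HET. WT 1 was the highest library and HET 4 the lowest, and the highest HET library was below the lowest WT library. The WT mean was 92.0 ± 21.4 CPM and the HET mean 36.3 ± 6.80 CPM (SD, n = 3 each). The log2 fold change was -1.34 ± 0.20 (SE; edgeR adjusted p = 0.00207), a level 2.54 times lower in HET. Of the 4 members tested, 1 was called lower and 0 higher, against 0.221% of all genes called lower and 0.0368% called higher. The members were chosen with earlier results of these data known, so such counts of members are no test of enrichment. By groups that did not overlap, 1 of 4 members had every HET library below every WT library, against 5.64% of all genes in that direction, 4.69% in the other and 10.3% in either. Cebpb ranked 6 by p among the 10869 genes, and 6 of the 24 genes called lower had a more negative fold change. Among 2312 genes whose average level was within 0.5 log2 CPM of that of Cebpb, 4 had a more negative fold change. RNA from a sorted population was measured, so fewer cells expressing Cebpb and less Cebpb RNA per cell cannot be told apart. Cebpb passed when any 1 library was left out, most narrowly without WT 1 (log2 fold change -1.14, adjusted p = 0.0496) and without HET 4 (-1.20, 0.0341). An exon of Tmem189 on the opposite strand covers 312 bases, 20.7% of the exonic length of Cebpb. No source used here states whether counting used strand, so reads of Tmem189 could be included. The gene ID of Tmem189 was not in the count table, so its level could not be set beside that of Cebpb.

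**Figure D1:**
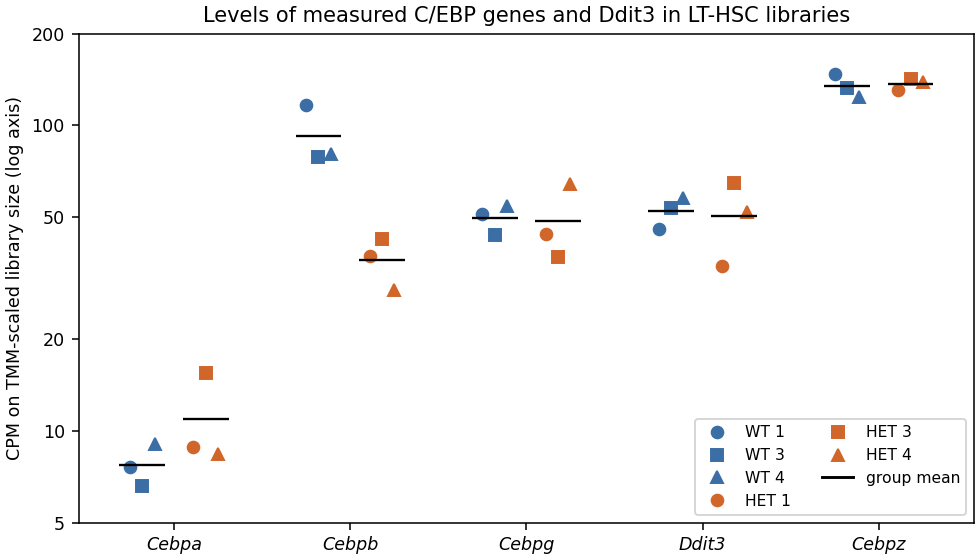
Levels of the 4 measured C/EBP genes and of Ddit3 in each library, in CPM on a log axis, with WT libraries in blue, HET libraries in orange, 1 marker shape per library number and a black line at each group mean. The 3 HET values of Cebpb, between 29.0 and 42.5 CPM, lie below its 3 WT values, between 78.9 and 116.7 CPM, while the groups overlap for the other genes.

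Cebpa, the granulocyte and monocyte lineage factor (ENSMUSG00000034957; GRCm38 chromosome 7, 35119293 to 35121928, plus strand, 1 exon), was the least abundant member. It had 42, 36 and 38 counts in WT against 89, 71 and 43 counts in HET, or 7.58, 6.59 and 9.06 CPM and 8.83, 15.5 and 8.38 CPM. HET 3 stood above the other 5 libraries, and HET 1 and HET 4 lay within the WT range. The log2 fold change was 0.49 ± 0.40 (SE; edgeR adjusted p = 0.995), and its 95% interval ran from 78.3% to 251% of the WT level. Without HET 3 the log2 fold change was 0.16.

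Cebpg lies next to Cebpa (ENSMUSG00000056216; chromosome 7, 35046422 to 35056573, minus strand), and the starts of the 2 genes are 62.7 kb apart, pointing away from each other. It measured 51.1, 43.7 and 54.4 CPM in WT against 44.2, 37.1 and 64.3 CPM in HET. HET libraries were both the lowest and the highest of the 6. The log2 fold change was -0.03 ± 0.21 (SE; edgeR adjusted p = 0.997), with a 95% interval from 72.0% to 132% of the WT level. Cebpa and Cebpg did not follow each other over the HET libraries: Cebpa was highest in HET 3, where Cebpg was lowest.

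Cebpz, the ribosome assembly factor (ENSMUSG00000024081; chromosome 17, 78919006 to 78937066, minus strand), was the most abundant member in counts and the most even. It measured 146.9, 132.3 and 123.5 CPM in WT against 130.5, 141.5 and 139.1 CPM in HET. All 3 HET libraries lay inside the WT range. The coefficient of variation between libraries was 8.78% in WT and 4.22% in HET, against 23.3% and 18.7% for Cebpb. The log2 fold change was 0.03 ± 0.13 (SE; edgeR adjusted p = 0.995), with a 95% interval from 84.9% to 123% of WT, the narrowest of the 4 members. Its exons share 171 bases, 3.67% of their length, with Cebpzos on the opposite strand, whose mean was 9.90 CPM in WT and 9.84 CPM in HET.

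The family also includes Ddit3, which encodes the stress-induced bZIP protein CHOP, a dimer partner that blocks binding of other C/EBP proteins to their usual sites. Ddit3 measured 45.8, 53.6 and 58.0 CPM in WT against 34.7, 64.6 and 52.2 CPM in HET. The WT libraries lay between the lowest and highest HET libraries, and the log2 fold change was -0.06 ± 0.21 (SE; edgeR adjusted p = 0.995). Cebpe, which acts in granulocyte maturation, was not analysed here.

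The changes of the members were set against each other within each library, where scaling cancels. The log2 ratio of Cebpb to Cebpa counts was 3.95, 3.58 and 3.15 in WT against 2.08, 1.46 and 1.79 in HET. The mean ratio was thus 3.44 times lower in HET, with no overlap between the groups. For Cebpb to Cebpg the mean log2 ratio was 0.87 ± 0.32 in WT and -0.40 ± 0.69 in HET, and for Cebpb to Cebpz it was -0.57 ± 0.21 and -1.93 ± 0.28 (SD, n = 3 each). In both cases every HET library again lay below every WT library. Each of the 3 pairs compared gave p = 0.1 in a two-sided exact permutation test, and 0.1 when adjusted over the pairs, which is the smallest value that 3 against 3 libraries allow. A difference between the members' changes therefore could not reach 0.05 in this test.

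Levels were divided by exonic length, with all annotated exons of a gene merged, for a rough comparison between genes. The annotation used for counting is not stated, and reads of Tmem189 could be included in Cebpb, so the order is approximate. In WT, Cebpb had the highest mean, at 61.2 ± 14.3 CPM per kb. Ddit3 followed at 30.6 ± 3.59 and Cebpz at 28.8 ± 2.53 CPM per kb, which did not differ beyond their spread. Cebpg came next at 8.85 ± 0.969 and Cebpa last at 2.94 ± 0.473 CPM per kb (SD, n = 3 each). In HET the mean of Cebpb was 24.1 ± 4.52 CPM per kb, close to Ddit3 at 29.5 ± 8.75 and Cebpz at 29.4 ± 1.24, and the libraries of these 3 genes overlapped. Cebpg and Cebpa kept the last places at 8.64 ± 2.51 and 4.13 ± 1.51 CPM per kb. Among the 4 bZIP genes measured (Cebpa, Cebpb, Cebpg and Ddit3), Cebpb made up 66.7%, 55.8% and 53.2% of the summed CPM per kb in WT against 44.1%, 36.1% and 30.0% in HET. The mean share of Cebpa was 2.85% ± 0.505 in WT against 6.12% ± 1.29 in HET, that of Cebpg 8.57% ± 0.950 against 13.4% ± 4.70, and that of Ddit3 30.0% ± 6.07 against 43.8% ± 6.75 (SD, n = 3 each). For Cebpg the groups overlapped, with HET 3 inside the WT range. The sum itself was 104 ± 11.5 CPM per kb in WT and 66.4 ± 11.2 CPM per kb in HET. These shares restate the lower level of Cebpb and were not tested.

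**Figure D2:**
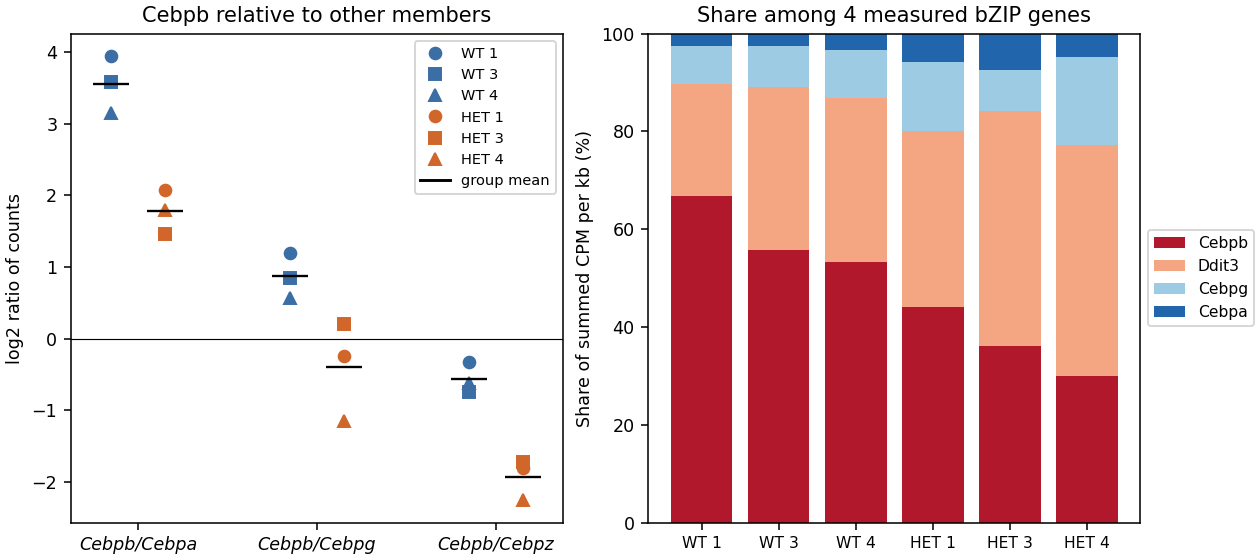
Left, log2 ratio of Cebpb counts to those of each other member in each library, with black lines at group means. Right, share of each gene in the summed CPM per kb of 4 bZIP genes, 1 bar per library. The Cebpb share runs from 53.2% to 66.7% in the WT libraries and from 30.0% to 44.1% in the HET libraries.

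Set among all genes tested, Cebpb lay beyond the lower edge of most genes, Cebpg and Cebpz near the middle, and Cebpa at 0.49 toward the upper edge. The median log2 fold change over all genes was 0.00, and the central 90% of genes ranged from -0.59 to 0.50. The value of Cebpb, -1.34, was outside that range, and 0.626% of genes had a lower one. Those of Cebpa, Cebpg and Cebpz were inside it. Over all genes, 28 (0.258%) passed the threshold, 24 lower and 4 higher in HET.

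**Figure D3:**
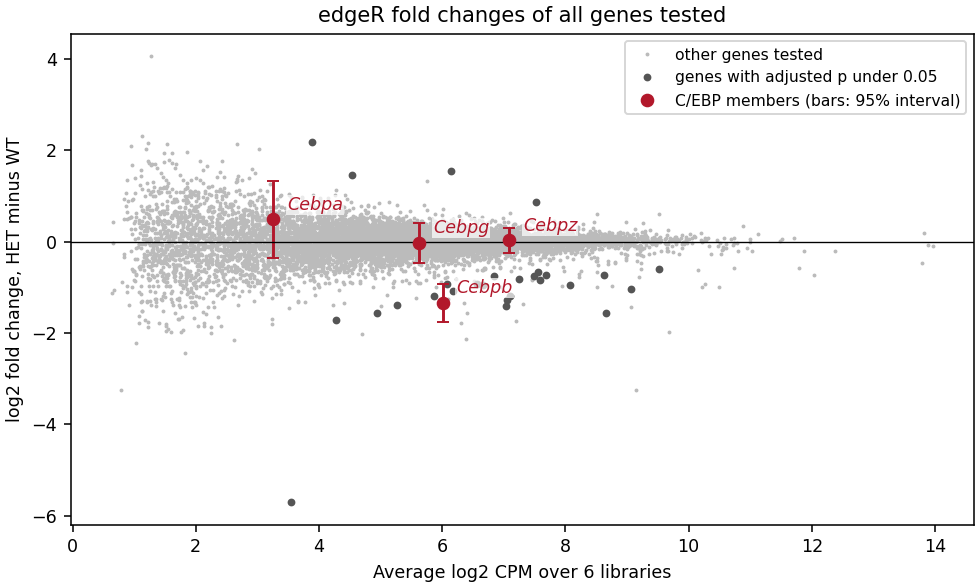
log2 fold change (HET minus WT) against average log2 CPM for 10869 genes tested with edgeR, with called genes in dark grey and the 4 C/EBP members in red with 95% intervals. Cebpb lies at -1.34 with an interval that does not reach 0, and the intervals of Cebpa, Cebpg and Cebpz include 0.

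The direction of Cebpb was the same in all 15 alternative fits, with log2 fold changes from -1.46 to -1.14 and adjusted p from 4.252e-07 with DESeq2 to 0.0496 without WT 1. Cebpa was positive in all 15 and passed in none (adjusted p at least 0.812). The values of Cebpg and Cebpz stayed between -0.28 and 0.12, changed sign in 4 and 1 of these fits, and passed in none.

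**Figure D4:**
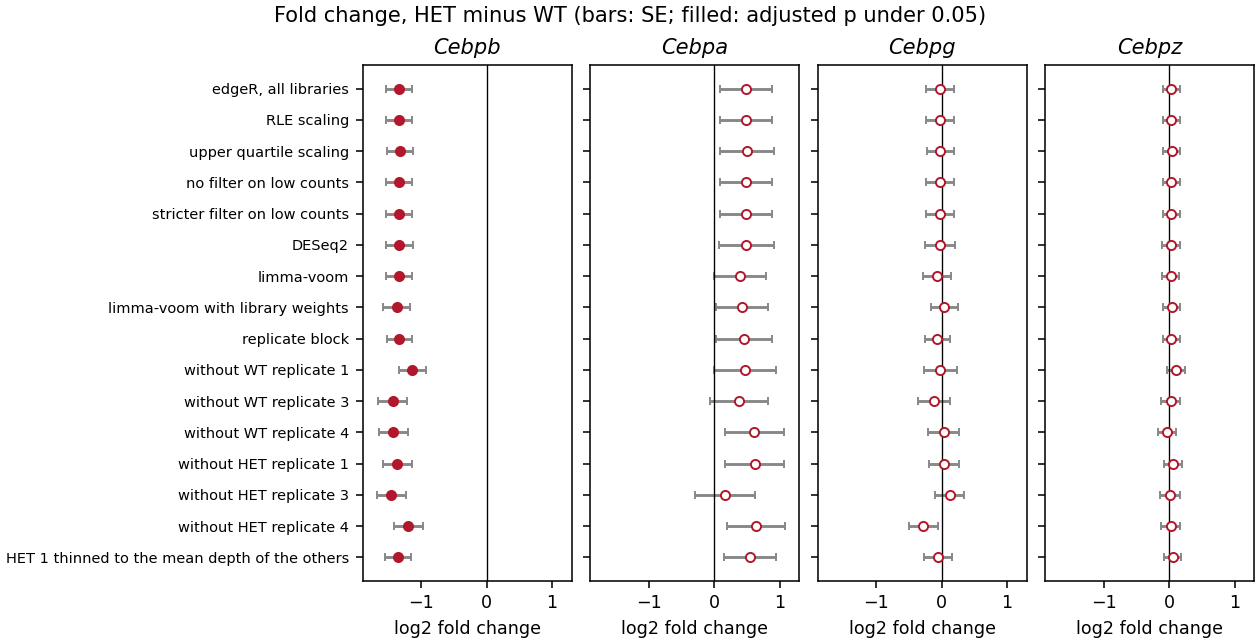
log2 fold change of each C/EBP member (HET minus WT) with its standard error in the edgeR fit of all libraries and in 15 alternatives, with filled points where the adjusted p is under 0.05. Points of Cebpb are filled in each of them, and those of Cebpa, Cebpg and Cebpz are open.

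Genes whose levels over the 6 libraries were most like those of Cebpb were ranked by Pearson r of log2 CPM among 8033 genes of average log2 CPM of at least 4. The first 5 were Pld3 (r = 0.983), Tsc22d2 (0.982), Smad7 (0.982), Fosl2 (0.980) and Dpm1 (0.979). All 5 had every HET library below every WT library, so the group difference is part of r, and within groups r was between 0.82 and 0.95 over the same 6 libraries. Fosl2, which encodes an AP-1 subunit, measured 774.0, 504.2 and 537.3 CPM in WT against 249.7, 198.2 and 161.9 CPM in HET. Like Cebpb it was highest in WT 1 and lowest in HET 4. It fell by 1.57 on the log2 scale (edgeR adjusted p = 0.00751, and 0.0734 without HET 3). Smad7, an inhibitor of TGF-beta signalling, fell by 0.95 (adjusted p = 0.00494), and missed the threshold without WT 1 (0.0548) or HET 4 (0.0799). Pld3, Tsc22d2 and Dpm1 had log2 fold changes of -0.57, -0.36 and -0.88 and did not pass.

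The genes most like Cebpa were Trim16 (r = 0.992), Hsh2d (0.987), Arrdc4 (0.976), Hmha1 (0.968) and Rgs3 (0.962), and each was highest in HET 3. Trim16, for instance, measured 50.4 CPM in HET 3 and from 9.51 to 15.2 CPM in the other 5 libraries. Those most like Cebpg were Zbtb18 (0.980), Nit1, Rras2, Mtmr4 and Ubp1 (0.968), which were highest in HET 4 and lowest in HET 3. Those most like Cebpz were Bdp1 (0.987), Ranbp2, Eif3a, Thoc2 and Rab3ip (0.981), highest in WT 1 and lowest in WT 4. The 4 lists of like genes shared no gene. Such values over 6 libraries describe which libraries were high, and depth and library quality are shared by all genes of a library.

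The 4 related groups of genes below were chosen with earlier results of these data known. Their counts of called genes are therefore no test of enrichment. Regulators and partners of C/EBP proteins form the first group. Of 26 on this list 24 were tested, and 1 fell and 0 rose, against 0.221% and 0.0368% of all genes. At an unadjusted p under 0.05 there were 4, against 5.22% of all genes. Every HET library was below every WT library for 3 of the 24 and above for 1, against 5.64% and 4.69% of all genes. The median log2 fold change was -0.06, with 14 negative and 10 positive values, and it was 0.01 without HET 4 and -0.11 without HET 1. The called gene was Crem, which encodes activators and repressors that bind the CRE. It measured 34.5, 20.7 and 32.9 CPM in WT against 12.6, 7.41 and 6.24 CPM in HET, without overlap. The log2 fold change of Crem was -1.71 ± 0.33 (SE; edgeR adjusted p = 0.0190). Its call was lost without WT 1 (0.224), WT 4 (0.101), HET 3 (0.0737) or HET 4 (0.206), and with limma-voom (0.0677).

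Trib1 encodes an adaptor through which the ubiquitin ligase COP1 degrades C/EBP proteins. It measured 60.4, 46.3 and 55.8 CPM in WT against 31.6, 27.3 and 32.2 CPM in HET. Its groups did not overlap, and the fitted log2 change was -0.83 ± 0.20 (SE). The adjusted p was 0.115 in edgeR and 0.0174 in DESeq2, so the call depended on the test. Its relative Trib2 had -0.83 ± 0.39 (SE), with overlapping libraries and an edgeR adjusted p of 0.950. Atf4, whose product pairs with C/EBPβ and C/EBPγ, measured 380.9, 602.1 and 564.3 CPM in WT against 401.1, 389.1 and 334.0 CPM in HET. WT 1 lay inside the HET range, and the log2 fold change was -0.46 ± 0.15 (SE; edgeR adjusted p = 0.514). Without WT 1 the log2 fold change of Atf4 was -0.64 with an adjusted p of 0.0496.

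Myeloid and inflammatory genes known as targets of C/EBP factors were the second group. Of 40 on the list 33 were in the table and 27 were tested, and 0 rose or fell with edgeR, DESeq2 or limma-voom, with 3 at an unadjusted p under 0.05, against 5.22% of all genes. The median log2 fold change was -0.23, with 19 negative and 8 positive values. It was 0.17 without WT 3, 0.01 with limma-voom and 0.04 with the library number as a block, so its sign was not stable. The smallest p was that of Socs3, a feedback inhibitor of cytokine receptors, with 87.7, 51.6 and 64.4 CPM in WT against 46.6, 36.4 and 30.4 CPM in HET. The groups did not overlap for Socs3, and the log2 fold change was -0.84 ± 0.22 (SE; edgeR adjusted p = 0.180). Without HET 1 it was -1.03 with an adjusted p of 0.0300. Prtn3, a protease of early granulocytes, had a log2 fold change of -0.44 ± 0.16 (SE; 0.659), Klf4, a monocyte lineage factor, -0.78 ± 0.29 (0.710) and Csf2rb, the shared receptor chain for GM-CSF, 0.39 ± 0.23 (0.980). Prtn3 and Klf4 also had no overlap between the groups. In all, 3 of the 27 genes had every HET library below every WT library and 0 had the reverse, against 5.64% and 4.69% of all genes.

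The summed level of granulocyte markers differed widely between libraries without separating the groups. Of 10 neutrophil markers tested, 1 (Prtn3) had every HET library below every WT library and 0 had the reverse, against 5.64% and 4.69% of all genes. Of 16 neutrophil markers 13 were in the table, and their summed level was 319.9, 665.0 and 147.6 CPM in WT against 482.2, 213.1 and 232.5 CPM in HET. S100a9 alone had 1112 counts in WT 3 and 22 in WT 4. Cxcr2 had 0 counts in WT 4 and HET 3, and Fcnb 0 in WT 4, and no other neutrophil marker in the table was at 0 in any library. The 12 of 15 monocyte and macrophage markers in the table summed to between 188.9 and 223.2 CPM in WT and between 193.9 and 219.3 CPM in HET. Among these, Ccr2 and F13a1 were at 0 in HET 4 and C1qa in HET 3. Megakaryocyte markers (11 of 12 in the table) summed to between 1406.3 and 1511.7 CPM in WT and between 1653.0 and 1891.6 CPM in HET, higher in every HET library, and all 11 fold changes were positive. Over all genes tested, 5513 fold changes were positive and 5356 negative. Of the 11 markers, 0 were called by edgeR, against 0.258% of all genes, 1 by DESeq2, against 59 genes in all, and 0 by limma-voom. At an unadjusted p under 0.05 in edgeR there was 1, against 5.22% of all genes. Every HET library was above every WT library for 1 of the 11 and below for 0, against 4.69% and 5.64% of all genes. That marker was Itga2b, with 289.4 CPM on average in WT and 438.3 CPM in HET. No megakaryocyte marker in the table was at 0. The 10 of 14 erythroid markers in the table summed to between 805.8 and 924.4 CPM in WT and between 710.5 and 783.0 CPM in HET, lower in every HET library. The fold changes did not share a direction: 5 of 9 tested were positive, with a median of 0.14. Most of the sum was Car2, with 753.7 CPM on average in WT and 638.7 CPM in HET, and Alas2 was at 0 in WT 3 and HET 1. Of 9 erythroid markers tested, 0 were called by edgeR, DESeq2 or limma-voom, against 0.258% of all genes in edgeR. At an unadjusted p under 0.05 in edgeR there were 2, against 5.22% of all genes. Every HET library was below every WT library for 2 of the 9 erythroid markers and above for 1, against 5.64% and 4.69% of all genes. T and NK cell markers (4 of 12 in the table) summed to between 26.0 and 47.0 CPM over the 6 libraries. Among these, Klrb1c was at 0 in HET 4. The part of RNA from any of these cell types in the lower level of Cebpb was not tested.

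The third group was the amino acid and stress response that ATF4, CHOP and C/EBP dimers drive. Of 23 genes 18 were tested, Cebpg and Ddit3 among them, and 1 fell and 0 rose, against 0.221% and 0.0368% of all genes. The median log2 fold change was -0.15, with 15 negative and 3 positive values, where all genes tested had 5356 negative and 5513 positive. At an unadjusted p under 0.05 there were 3, against 5.22% of all genes. Every HET library was below every WT library for 3 of the 18 and above for 1, against 5.64% and 4.69% of all genes. The number called was 0 without WT 3 or HET 4. The called gene was Ppp1r15a, which encodes the phosphatase subunit GADD34 that reverses the translational arm of this response. It measured 796.0, 901.8 and 947.5 CPM in WT against 539.9, 699.2 and 524.8 CPM in HET. The fitted log2 change was -0.59 ± 0.11 (SE; edgeR adjusted p = 0.0236). The groups did not overlap for Ppp1r15a, and its call was lost without WT 1 (0.0543), WT 3 (0.170), WT 4 (0.233) or HET 4 (0.390). Without WT 1 or WT 4 the number called was still 1, so another gene of this list passed there. Without WT 1 that gene was Atf4 (edgeR adjusted p = 0.0496). Slc3a2, a subunit of amino acid transporters, had -0.41 ± 0.13 (SE; 0.495) and Asns, asparagine synthetase, -0.48 ± 0.24 (SE; 0.952), both without overlap between the groups.

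The fourth group held ribosome assembly factors, chosen around early assembly of the large subunit, the process in which CEBPZ acts. All 35 genes were tested, and 1 fell and 0 rose, against 0.221% and 0.0368% of all genes. At an unadjusted p under 0.05 there were 3, against 5.22% of all genes, and without HET 1 the number called was 2. Every HET library was below every WT library for 3 of the 35 and above for 0, against 5.64% and 4.69% of all genes. The median log2 fold change was -0.07, with 28 negative and 7 positive values, and that of Cebpz was 0.03. The called gene was Ppan, a factor for processing of large-subunit RNA, at 318.1, 372.8 and 379.4 CPM in WT against 211.3, 180.6 and 164.9 CPM in HET. Its groups did not overlap, and the log2 fold change was -0.94 ± 0.12 (SE; edgeR adjusted p = 0.000521). Nifk had -0.36 ± 0.14 (SE; 0.778), Rrp1b -0.30 ± 0.14 (0.950) and Nop56, a core snoRNP protein, -0.28 ± 0.14 (0.951). The summed level of the 35 genes was 7372.8, 7487.5 and 7167.8 CPM in WT against 7217.3, 6542.4 and 6182.1 CPM in HET, with HET 1 inside the WT range. With edgeR, DESeq2 or limma-voom, 0 genes rose in any of these 4 groups of genes.

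**Figure D5:**
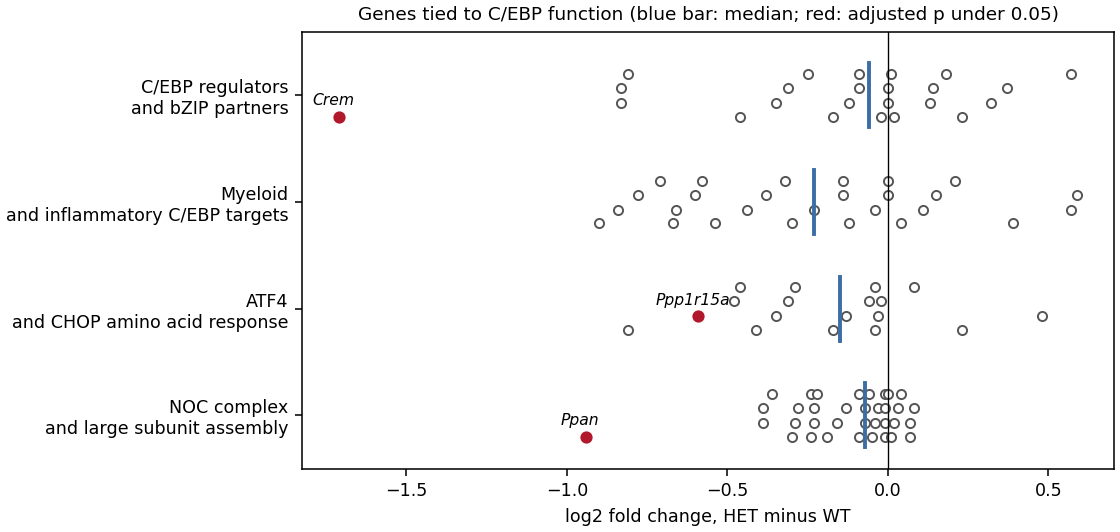
log2 fold change (HET minus WT) of each tested gene in 4 groups tied to C/EBP function, with 1 point per gene, a blue bar at the group's median and red points where the adjusted p is under 0.05. Crem, Ppp1r15a and Ppan are the called genes, and the medians lie between -0.23 and -0.06.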

How the data were processed

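RNA-seq of sorted stem cells was available as a deposited table of raw read counts per gene for 6 libraries (3 WT, 3 HET), grouped by the genotype label, with library numbers from the titles, which call HET libraries knockouts. FastQC, STAR 2.5.2b, edgeR, limma and mm10 are named in the submitters' processing notes, with no role or order. No source used here states the read counter, annotation or strand setting. The samples' protocol fields concern human biopsies and were disregarded. The counts were tested as deposited with edgeR 4.0.16 in R 4.3.3: filterByExpr removed 910 of 11779 genes, TMM scaling, robust dispersions, and the two-sided quasi-likelihood F test of HET against WT with Benjamini-Hochberg adjustment over 10869 genes and a threshold of 0.05. Standard errors were derived from the F statistic, and 95% intervals from the same fit. Positions and exonic lengths came from GENCODE M21 (GRCm38, the assembly also called mm10), matched by gene ID for 11775 genes. Date-like entries were mapped back to 18 symbols. Exact permutation tests used SciPy 1.17.1. DESeq2 1.42.0 and limma 3.58.1 were alternatives, with other scalings and filters, a library-number block and each library left out. Thinning of HET 1 to 0.507 of its reads was chosen after seeing the data. The scripts were tested on simulated counts. The members and gene lists were chosen with earlier results of these data known. Genes named are the members, their family, called list members, up to 4 of smallest p per list, and the 5 most like each member by r, predicted genes aside. Kit, S100a9, Car2, Itga2b and markers at 0 counts were named after their values were seen. The marker lists are otherwise given as sums and counts. Counts of whole reads carry no molecular identifiers. Some marker results are not reported here.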

Additional observations from a re-analysis of the deposited data

How the results depend on the processing

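Log2 fold changes of Cebpb and Cebpa and the count of C/EBP members called (1) kept their direction and side of the threshold in all 15 alternatives. Cebpg, at -0.03 with all libraries, changed sign with limma-voom and library weights (0.04), and without 1 library it ranged from -0.28 to 0.12. Cebpz ranged from -0.03 to 0.10 without 1 library and Ddit3 from -0.28 to 0.15, both changing sign and neither passing, and the cause was not tested. Over all genes, 28 calls became 59 with DESeq2, 43 with limma-voom and library weights, and from 10 to 68 without 1 library (10 without HET 4, 11 without WT 1, 68 without HET 1). The library number as a replicate block gave 49 calls, with Cebpb at -1.34 (edgeR adjusted p = 0.00128). Deviations of same-numbered libraries correlated at 0.112, -0.044 and 0.072, and those of differently numbered WT and HET libraries at -0.174 to 0.111. Whether same-numbered libraries were paired is not stated, and with 3 libraries per group these values cannot decide it. The differences between groups (HET minus WT) in the log2 ratio of Cebpb to the other members stayed between -1.99 and -0.89 with a prior count or without 1 library. Cebpa had the fewest counts of the members, 36 to 89 per library, and the widest interval.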
